A study of Homo sapiens with 18 samples.

Results

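The genes described here are 43 interferon-stimulated genes and nucleic acid sensors, chosen by name, among the 60595 genes listed in each of 4 deposited expression tables. Each was looked up by its symbol, which found 42 of them. OAS1 was found by its gene identifier, because its row carries the name of an overlapping antisense gene. Every one of the 43 reached 1 FPKM (fragments per kilobase of transcript, scaled to the fragments sequenced in the library) in at least 2 of the 18 libraries, although IFI27 did so in only 2 libraries and XAF1 in only 3.

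The libraries come from A375, a melanoma line of human origin that carries an activating BRAF mutation, and form 9 groups of 2. The letter R in a group name is read here as cells resistant to inhibitors of BRAF and MEK and the letter P as the parental cells, since the labels do not spell the letters out. The R_DT and P_DT groups received 250 nM dabrafenib, a BRAF inhibitor, together with 10 nM trametinib, a MEK inhibitor, and the R_DMSO and P_DMSO groups received vehicle; all 4 carry the genotype label WT. The R_shLSD1 and P_shLSD1 groups carried a hairpin against LSD1, the histone demethylase encoded by KDM1A. The R_shFosL1 group carried a hairpin against FOSL1, a subunit of the transcription factor AP-1, and R_shCtrl and P_shCtrl carried a control hairpin. The treatment protocol mentions lentivirus, and the labels of the hairpin groups name no drug. The sources used here give neither the number of clones in each line nor the number of hairpin sequences, and they do not say that the 2 libraries of a group came from separate cultures. The p-values below therefore measure the spread between these libraries, which may be technical. The protocol text, the same for all 18 libraries, names more than one library preparation and sequencing instrument without saying which served which library, so a difference in preparation between groups cannot be told apart from the groups. In the drug table, the columns of confidence bounds beside both R_DMSO values carry names spelled unlike those beside the other 6 libraries. Whether R_DMSO was quantified in the same run is not known from the labels or headers. This bears on every comparison that uses R_DMSO.

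Interferons are secreted proteins that warn cells of infection. Type I interferon acts through its receptor and the kinases JAK1 and TYK2 to assemble a complex that includes STAT2 and IRF9 and binds an element called ISRE in the promoters of its target genes. Type II interferon acts mainly at an element called GAS. The cytosolic helicases RIG-I (gene DDX58) and MDA5 (gene IFIH1) sense double-stranded RNA and trigger the production of interferon. Loss of LSD1 in other cancer cells has been reported to raise transcripts of endogenous retroviruses and to lower components of the RNA-induced silencing complex (RISC), so that double-stranded RNA accumulates and an interferon response follows, an effect known as viral mimicry. The values below give the level of the responding genes in these cells.

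Promoter sequences were taken from RefSeq (GRCh38.p14, 250 bases before to 50 bases after a gene start), which gave windows for 34 of the 43 genes, with DDX58 matched under its newer symbol. The ISRE core was searched as TTTC, 2 bases of any kind and TTTC, or on the other strand GAAA, 2 bases of any kind and GAAA, and the GAS element as TTCNNNGAA, which reads the same on both strands. A core was present in 23 of the 34 genes (67.6%), against 1195 of 27305 genes with a window (4.38%). A GAS sequence was present in 11 of the 34 (32.4%), against 9.38% of all genes with a window. These matches are descriptions of the letters and do not show binding. Shown here are 6 promoters of genes that the results below turn on, from 40 bases before the first core to 40 bases after the last and at most 20 bases past the gene start, written 5′ to 3′ on the strand of the gene, with the ISRE cores in capitals.
IFI6 promoter, chr1:27672236-27672388, minus strand: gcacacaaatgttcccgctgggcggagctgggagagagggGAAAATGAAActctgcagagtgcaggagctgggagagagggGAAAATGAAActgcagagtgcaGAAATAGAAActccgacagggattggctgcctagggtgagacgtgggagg
IFIT1 promoter, chr10:89392467-89392569, plus strand: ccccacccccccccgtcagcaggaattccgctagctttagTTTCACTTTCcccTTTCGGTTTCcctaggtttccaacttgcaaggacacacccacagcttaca
BST2 promoter, chr19:17405705-17405800, minus strand: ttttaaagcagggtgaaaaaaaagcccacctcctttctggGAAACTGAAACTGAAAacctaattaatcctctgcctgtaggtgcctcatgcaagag
OAS3 promoter, chr12:112938291-112938493, plus strand: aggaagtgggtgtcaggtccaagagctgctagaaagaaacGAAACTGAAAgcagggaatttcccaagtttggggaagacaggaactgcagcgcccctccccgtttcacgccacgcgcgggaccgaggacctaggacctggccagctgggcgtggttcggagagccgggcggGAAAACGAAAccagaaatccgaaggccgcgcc
IFITM3 promoter, chr11:320846-320952, minus strand: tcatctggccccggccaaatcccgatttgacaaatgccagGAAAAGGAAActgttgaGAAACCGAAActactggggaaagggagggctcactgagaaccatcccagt
PSMB8 promoter, chr6:32844028-32844091, minus strand: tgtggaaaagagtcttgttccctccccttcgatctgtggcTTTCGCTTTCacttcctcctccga
IFI6 held 3 cores, IFIT1, BST2, OAS3 and IFITM3 held 2 each, and PSMB8 held 1. The 2 cores of BST2 overlap each other, and the core of PSMB8 lies across the gene start.

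The 18 libraries held 13921 to 15314 genes at 1 FPKM or more, and their FPKM summed to 556410 to 814364. Steps of whole fragments in the values were clear in 8 libraries and put their depth at 7.2 to 11 M fragments (M, 10 to the sixth power), if fragments are 250 bases long. The P_DMSO libraries lay further apart than those of any other group, with an SD of the log2 difference between replicates of 0.73 over genes at 5 FPKM or more, against 0.40 to 0.50 in the other groups. The hairpins lowered their targets. KDM1A was at 10.1 and 11.1 FPKM in R_shLSD1, against 73.3 and 76.5 FPKM in R_shCtrl, and at 9.54 and 6.73 FPKM in P_shLSD1, against 78.1 and 72.4 FPKM in P_shCtrl. FOSL1 was at 36.2 and 38.3 FPKM in R_shFosL1, against 109 and 104 FPKM in R_shCtrl, which stands in another table. Of 8 melanocytic markers, the lineage factor SOX10 was at 89.1 to 333 FPKM in the 8 P libraries and at 0 to 0.163 FPKM in the 10 R libraries, while tyrosinase (TYR) was at 0 in all 18. The summed level of those 8 markers was 106 to 452 FPKM in P libraries and 17.9 to 58.3 FPKM in R libraries. Among leukocyte markers, TYROBP was at 0 in all libraries and PTPRC (CD45) reached at most 0.204 FPKM, whereas CSF1R reached 19.8 FPKM and LYZ 9.92 FPKM. In bulk RNA, a change in every cell and a change in the share of cells that express a gene cannot be told apart.

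Levels of the 43 genes, which FPKM makes comparable per length of transcript, spanned a wide range. IFITM3, a membrane protein that blocks virus entry, was the highest of them in all 18 libraries, at 32.0 FPKM in R_shLSD1 replicate 2 to 808 FPKM in P_DT replicate 2. The double-stranded RNA kinase PKR (gene EIF2AK2) ranged over 14.2 to 31.3 FPKM. The RNA-editing enzyme ADAR stood at 44.5 to 75.4 FPKM in P libraries and at 14.6 to 30.6 FPKM in R libraries. The lines thus did not overlap, although libraries from separate tables may have been normalized separately. At the other end, 19 of the 43 genes stayed at or below 10 FPKM in every library. The median of the 43 genes within a library was lowest in R_shLSD1, at 2.28 and 2.25 FPKM, and highest in P_DT, at 8.59 and 8.58 FPKM.

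**Figure D1:**
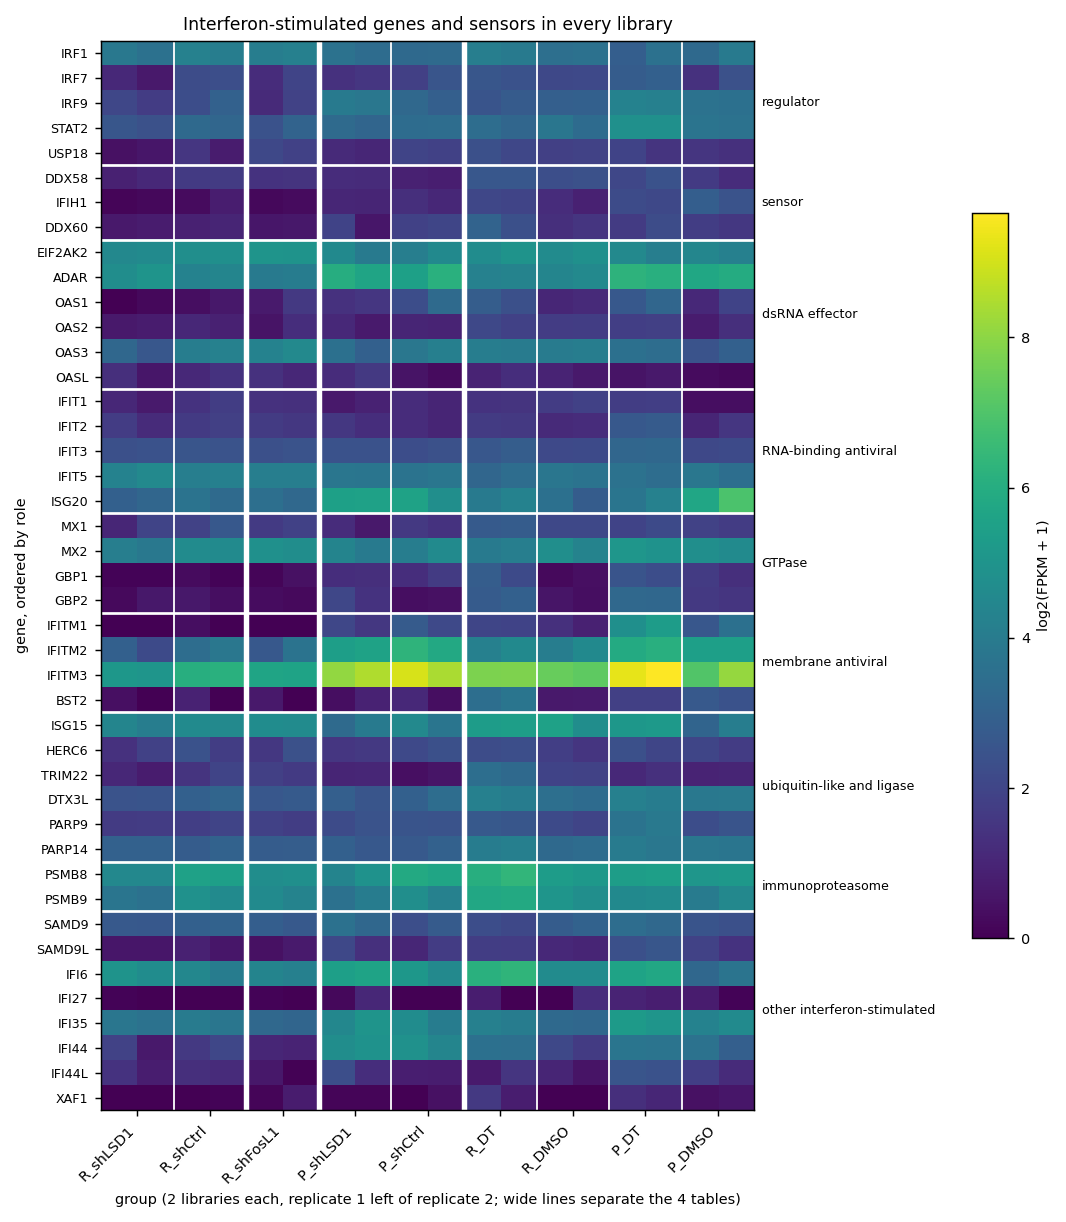
Heat map of log2(FPKM + 1) for the 43 genes (rows, ordered by role) in the 18 libraries (columns, 2 per group). Wide lines separate the tables, which may have been normalized separately. IFITM3 is the brightest row throughout, at 32.0 to 808 FPKM, while IFI27 and XAF1 stay near the bottom of the scale.

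The first comparison asked how these genes respond to the LSD1 hairpin in R cells. More of them fell than rose: 7 of the 31 genes that passed the expression filter fell in R_shLSD1 relative to R_shCtrl and 1, ADAR, rose (limma, adjusted p below 0.05). The genes that fell were the immunoproteasome subunits PSMB8 and PSMB9, the antiviral genes IFITM3, OAS3 and MX2, and the interferon pathway factors STAT2 and IRF7. Their log2 fold changes ran between -0.64 and -1.41. Among all 14293 genes tested, 21.8% were called, with 12.4% lower and 9.42% higher, so the 25.8% of these 31 genes that were called lies close to the share over all genes. Their log2 fold changes had a median of -0.49, against -0.047 over all genes tested, and 27 of the 31 were below 0. The other 12 genes, which include IFIH1, OAS1, OAS2, GBP1, GBP2, IFITM1 and BST2, had fewer than 2 libraries at 1 FPKM in this table and were not tested.

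Among the regulators, IRF7, the factor that drives production of interferon alpha, was at 1.14 and 0.587 FPKM in R_shLSD1, compared with 3.79 and 4.04 FPKM in R_shCtrl. STAT2, the partner of IRF9 in the ISRE-binding complex, was at 5.01 and 4.29 FPKM in R_shLSD1, compared with 8.76 and 8.07 FPKM in R_shCtrl. Both R_shLSD1 libraries lay below both R_shCtrl libraries for each gene, with log2 fold changes of -1.41 ± 0.26 for IRF7 (adjusted p = 0.0202) and -0.74 ± 0.17 for STAT2 (adjusted p = 0.0346). IRF9, which gives that complex its DNA specificity, was at 3.17 and 2.24 FPKM in R_shLSD1, compared with 3.87 and 7.05 FPKM in R_shCtrl, and did not pass (-0.77 ± 0.31, adjusted p = 0.138). IRF1, a factor induced mainly by type II interferon, was at 13.6 and 11.1 FPKM in R_shLSD1, compared with 17.9 and 15.9 FPKM in R_shCtrl (-0.42 ± 0.15, adjusted p = 0.105). For IRF9 and IRF1 too the 2 groups did not overlap. USP18, which shuts off signalling at the type I receptor and is named here after its values were seen, was at 0.343 and 0.489 FPKM in R_shLSD1, against 1.90 and 0.668 FPKM in R_shCtrl, and was not tested.

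The sensors were low. DDX58 was at 0.855 and 1.16 FPKM in R_shLSD1, compared with 2.11 and 2.21 FPKM in R_shCtrl (-0.66 ± 0.25, adjusted p = 0.119); its groups did not overlap, but the difference did not pass. IFIH1 was at 0.0837 and 0.143 FPKM in R_shLSD1, compared with 0.217 and 0.728 FPKM in R_shCtrl, all of them below 1 FPKM. DDX60, a helicase that assists RIG-I, was at 0.570 and 0.644 FPKM in R_shLSD1, compared with 0.868 and 1.01 FPKM in R_shCtrl.

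The effectors that act on double-stranded RNA went in both directions. OAS3, which makes 2′,5′-oligoadenylates, was at 8.33 and 5.23 FPKM in R_shLSD1, compared with 15.9 and 17.9 FPKM in R_shCtrl (-1.23 ± 0.22, adjusted p = 0.0200). ADAR, which edits double-stranded RNA and so hides it from MDA5, was at 25.6 and 30.6 FPKM in R_shLSD1, compared with 18.4 and 19.8 FPKM in R_shCtrl (0.53 ± 0.13, adjusted p = 0.0401). The R_shLSD1 libraries were thus both below the controls for OAS3 and both above them for ADAR. PKR (EIF2AK2) was at 22.1 and 23.8 FPKM in R_shLSD1, compared with 26.4 and 27.0 FPKM in R_shCtrl, lower in both R_shLSD1 libraries, and did not pass (adjusted p = 0.188).

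IFITM3 was at 33.2 and 32.0 FPKM in R_shLSD1, compared with 65.3 and 68.7 FPKM in R_shCtrl (-1.02 ± 0.079, adjusted p = 0.00272). PSMB8, a catalytic subunit of the immunoproteasome that cuts peptides for antigen presentation, was at 21.6 and 21.6 FPKM in R_shLSD1, compared with 45.5 and 42.8 FPKM in R_shCtrl (-0.998 ± 0.091, adjusted p = 0.00363). PSMB9, its neighbour and fellow subunit, was at 12.5 and 11.2 FPKM in R_shLSD1, compared with 28.6 and 23.6 FPKM in R_shCtrl (-1.07 ± 0.14, adjusted p = 0.00873). In each of these 3 genes the R_shLSD1 libraries lay close together and well below both controls. MX2, a GTPase that restricts HIV at the nuclear pore, was at 16.7 and 13.5 FPKM in R_shLSD1, compared with 24.2 and 23.6 FPKM in R_shCtrl (-0.64 ± 0.14, adjusted p = 0.0302), again with both R_shLSD1 libraries lower. PSMB8 and PSMB9 are transcribed from opposite strands of chromosome 6 and overlap over 139 exonic bases, and the strand setting of the authors' counting is not given in the sources used here, so their reads may be mixed in part. PSMB8 shares 757 of its 2997 exonic bases with genes on the opposite strand, PSMB9 and the noncoding PSMB8-AS1.

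None of the 5 RNA-binding antiviral genes (IFIT1, IFIT2, IFIT3, IFIT5, ISG20), of the 6 ubiquitin-like proteins and ligases or of the 5 tested genes of other functions passed. Of these, ISG15 and IFI6 were picked after their values were seen. ISG15, the ubiquitin-like protein conjugated to viral and host targets, was at 20.1 and 15.9 FPKM in R_shLSD1, compared with 23.4 and 22.2 FPKM in R_shCtrl (-0.34 ± 0.14, adjusted p = 0.155). IFI6, a membrane protein of the endoplasmic reticulum and mitochondria, was at 29.9 and 24.7 FPKM in R_shLSD1, compared with 21.0 and 15.7 FPKM in R_shCtrl, both libraries above the controls, and did not pass (0.56 ± 0.17, adjusted p = 0.0781). Leaving out single libraries shows how far the calls rest on each. Without R_shCtrl replicate 1, 2 genes remained called lower, without R_shCtrl replicate 2, 3, without R_shLSD1 replicate 2, 4, and without R_shLSD1 replicate 1, 7 of which 6 were among those named above. Over all genes 7.0% to 10.5% were called in these fits, against 21.8% with all libraries. PSMB8 and IFITM3 were called in each of these fits, with adjusted p up to 0.0306 and 0.0232, and PSMB9 in all but the one without R_shCtrl replicate 1 (adjusted p = 0.0504). ADAR and STAT2 were called in none of the 4, with adjusted p up to 0.153 and 0.145. Markers of other cells differed too: the summed level of 6 fibroblast markers was 28.4 and 20.9 FPKM in R_shLSD1, against 13.6 and 15.3 FPKM in R_shCtrl, with lumican (LUM) called higher (1.88 ± 0.21) and COL1A2 at 0. The 9 leukocyte markers summed to 13.6 and 11.2 FPKM in R_shLSD1, against 14.5 and 22.6 FPKM in R_shCtrl, most of it CSF1R, the 1 leukocyte marker tested, which was called lower (-0.72 ± 0.18). The 8 melanocytic markers summed to 41.1 and 37.9 FPKM in R_shLSD1, against 28.1 and 24.1 FPKM in R_shCtrl, with 1 of 2 tested, MITF, called higher (0.58 ± 0.11). Their part in the result was not tested.

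**Figure D2:**
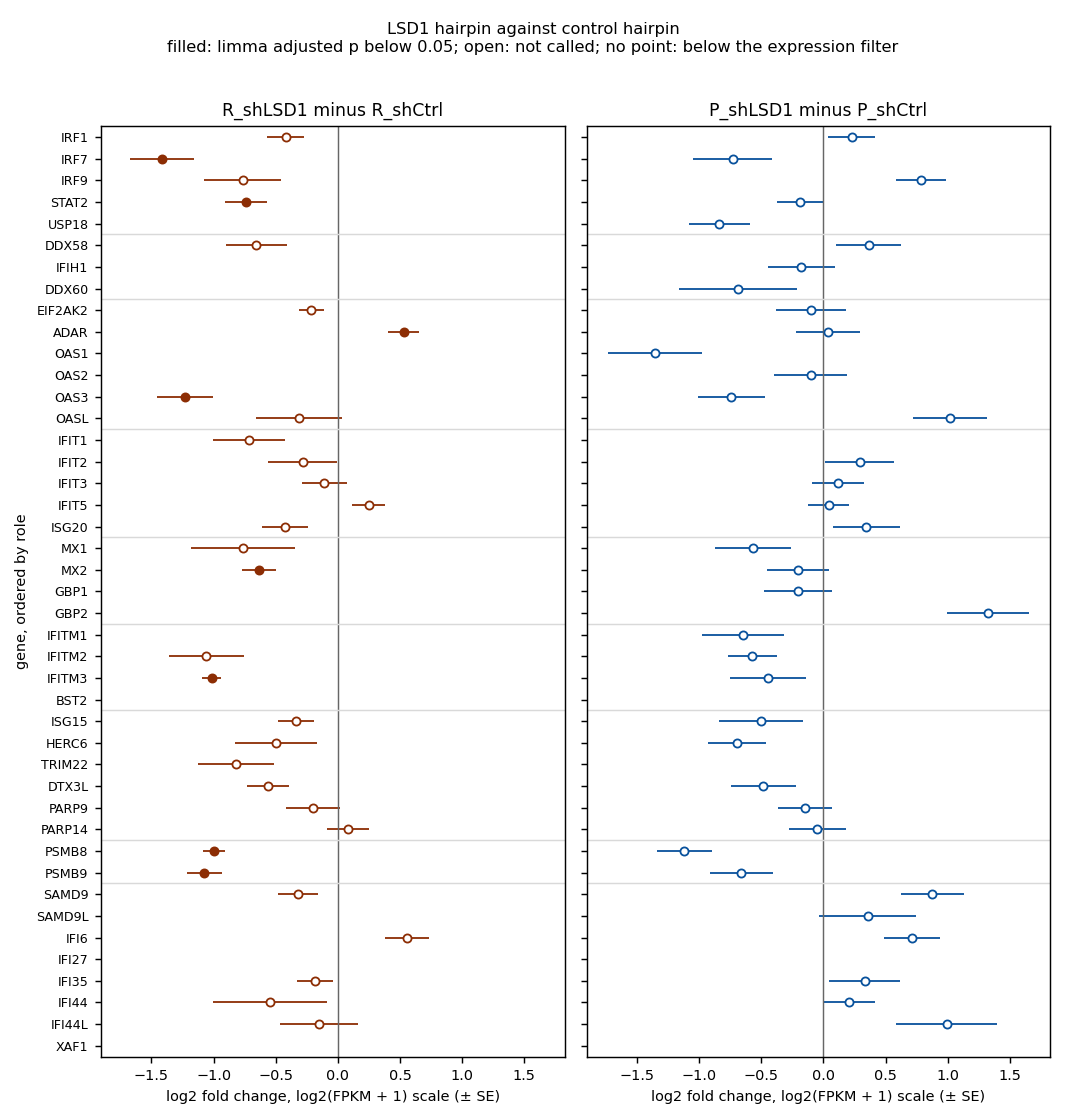
Log2 fold change on the log2(FPKM + 1) scale (x axis, ± SE) of each gene (y axis, ordered by role) for the LSD1 hairpin against the control hairpin in R cells (left) and P cells (right), fitted in separate tables. Filled points passed limma at an adjusted p below 0.05. In R cells 27 of 31 points lie below 0 and 8 are filled, and in P cells none of 38 is filled.

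In P_shLSD1 relative to P_shCtrl none of the 38 tested genes was called by limma, and 12 of the 38 had an unadjusted p below 0.05. Of all 14729 genes tested there, 3.42% were called, 2.2% higher and 1.22% lower, and 3629 had an unadjusted p below 0.05. The median log2 fold change was -0.13, against -0.040 over all genes, with 16 genes above 0 and 22 below. The genes thus lay on both sides of 0. Whether the change differs between P and R cells was not tested, since the 2 tables may have been normalized separately. Of the 29 genes with a test in both lines, 5 had groups that did not overlap and lay in opposite directions in R and P cells, as had 8.08% of all 13250 genes tested in both.

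The regulators showed this mixture. IRF9 was at 14.6 and 13.1 FPKM in P_shLSD1, compared with 8.68 and 6.66 FPKM in P_shCtrl, both P_shLSD1 libraries above the controls (0.79 ± 0.20, adjusted p = 0.0941). IRF7 was at 1.62 and 1.87 FPKM in P_shLSD1, compared with 2.54 and 4.85 FPKM in P_shCtrl, both below the controls (-0.73 ± 0.32, adjusted p = 0.232). STAT2 was at 9.03 and 7.81 FPKM in P_shLSD1, compared with 9.57 and 9.89 FPKM in P_shCtrl (-0.19 ± 0.18, adjusted p = 0.571), and IRF1 was at 11.6 and 9.75 FPKM in P_shLSD1, compared with 8.73 and 9.18 FPKM in P_shCtrl (0.23 ± 0.19, adjusted p = 0.506). For STAT2 the P_shLSD1 libraries lay just below the controls and for IRF1 just above. Neither DDX58 nor IFIH1 passed: DDX58 was at 1.32 and 1.29 FPKM in P_shLSD1, compared with 0.844 and 0.742 FPKM in P_shCtrl (0.36 ± 0.26, adjusted p = 0.449), and IFIH1 was at 1.03 and 0.984 FPKM in P_shLSD1, compared with 1.46 and 1.10 FPKM in P_shCtrl (-0.18 ± 0.27, adjusted p = 0.729). PKR (EIF2AK2) was at 23.2 and 14.2 FPKM in P_shLSD1, compared with 16.7 and 23.0 FPKM in P_shCtrl (-0.10 ± 0.28, adjusted p = 0.857) and ADAR was at 64.6 and 49.3 FPKM in P_shLSD1, compared with 44.5 and 68.3 FPKM in P_shCtrl (0.034 ± 0.26, adjusted p = 0.949). The groups overlapped for PKR and for ADAR and did not for DDX58 or IFIH1.

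PSMB8 and GBP2, picked after their values were seen, had the lowest adjusted p of the 38 genes in P cells. PSMB8 was at 19.7 and 29.1 FPKM in P_shLSD1, compared with 56.8 and 50.1 FPKM in P_shCtrl (-1.12 ± 0.22, adjusted p = 0.0594). GBP2, an interferon-induced GTPase that attacks vacuoles of intracellular pathogens, was at 3.20 and 1.63 FPKM in P_shLSD1, compared with 0.295 and 0.359 FPKM in P_shCtrl (1.33 ± 0.33, adjusted p = 0.0882). PSMB8 was lower and GBP2 higher in both P_shLSD1 libraries than in either control. GBP2, DDX58, IFI44L and OASL passed the expression filter of this table only through P_shLSD1, so their tests do not stand apart from the filter. PSMB8 was called lower after scaling to TPM (adjusted p = 0.0250) or quantile normalization (0.0448), and without P_shCtrl replicate 2 (0.0245) or P_shLSD1 replicate 2 (0.0275). Without P_shCtrl replicate 1, OAS1 was called lower (adjusted p = 0.0119) and IFI6 higher (0.0289). Here too non-melanocytic markers moved: the 6 fibroblast markers summed to 41.7 and 51.8 FPKM in P_shLSD1, against 7.67 and 4.96 FPKM in P_shCtrl, and the 9 leukocyte markers to 9.42 and 12.6 FPKM in P_shLSD1, against 3.39 and 2.33 FPKM in P_shCtrl. The 8 melanocytic markers summed to 205 and 218 FPKM in P_shLSD1, against 114 and 106 FPKM in P_shCtrl, with SOX10, LUM and the lysozyme gene LYZ called higher and PTPRC at most 0.0378 FPKM. Their part in these values was not tested.

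**Figure D3:**
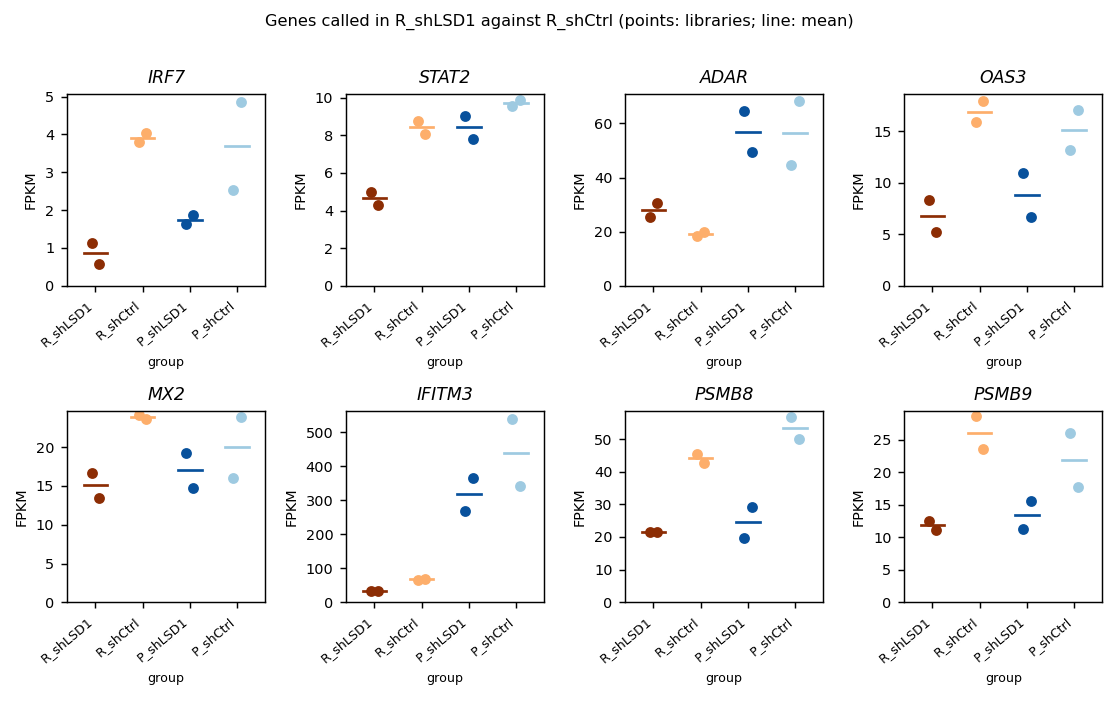
FPKM (y axis, linear from 0) in each library (points, with the mean of 2 as a line) for the 8 genes called in R_shLSD1 against R_shCtrl, shown also for the P hairpin groups of another table. PSMB8 sits at 21.6 and 21.6 FPKM in R_shLSD1, below 45.5 and 42.8 FPKM in R_shCtrl, and its P_shLSD1 points lie below those of P_shCtrl as well.

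The FOSL1 hairpin libraries stand in a table with no control, so only their levels are given. Beside them stands R_shCtrl of another table, which may have been normalized separately. PSMB8 was at 25.5 and 27.3 FPKM in R_shFosL1 and 45.5 and 42.8 FPKM in R_shCtrl, and IFITM3 at 49.3 and 47.0 FPKM in R_shFosL1 and 65.3 and 68.7 FPKM in R_shCtrl. OAS3 was at 18.2 and 22.3 FPKM in R_shFosL1 and 15.9 and 17.9 FPKM in R_shCtrl, and STAT2 at 4.39 and 7.34 FPKM in R_shFosL1 and 8.76 and 8.07 FPKM in R_shCtrl. IRF9 was at 1.24 and 2.75 FPKM in R_shFosL1, where replicate 1 held its lowest level of all 18 libraries, and 3.87 and 7.05 FPKM in R_shCtrl. ADAR was at 14.6 and 15.4 FPKM in R_shFosL1 and 18.4 and 19.8 FPKM in R_shCtrl. The remaining genes in R_shFosL1 ranged between 0 FPKM for IFITM1 and 31.3 FPKM for EIF2AK2, and IFITM1 was at 0.283 and 0 FPKM in R_shCtrl.

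The next pair of comparisons asked how the genes respond to dabrafenib plus trametinib in each line. In R cells 12 of 41 tested genes (29.3%) rose in R_DT relative to R_DMSO and none fell (limma, adjusted p below 0.05). Of the 41, 23 had an unadjusted p below 0.05 in either direction, as had 4143 of all 17190 genes tested. Over all 17190 genes tested 6.48% were called, 3.65% higher and 2.83% lower. None of the 41 fell in any alternative. Where both libraries of each R group were kept, the alternatives gave 7 to 14 genes higher. The 14, of 40 tested, came from the R_DT and R_DMSO libraries alone, when 16.6% of all genes were called. The 12 genes that rose include the tetherin gene BST2, the GTPases GBP1 and GBP2, IFI44, IFI6, OAS1, the ligase TRIM22 and both immunoproteasome subunits. The median log2 fold change of the 41 genes was 0.61, against -0.026 over all genes.

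BST2, which tethers budding virions to the cell surface, was at 10.2 and 12.5 FPKM in R_DT, compared with 0.590 and 0.622 FPKM in R_DMSO (2.93 ± 0.20, adjusted p = 0.00104). GBP2 was at 5.80 and 6.86 FPKM in R_DT, compared with 0.443 and 0.291 FPKM in R_DMSO (2.42 ± 0.19, adjusted p = 0.00199). GBP1, its relative, was at 6.22 and 3.45 FPKM in R_DT, compared with 0.173 and 0.303 FPKM in R_DMSO (2.197 ± 0.29, adjusted p = 0.0113). All 3 were below 1 FPKM in both R_DMSO libraries and above 3 FPKM in both R_DT libraries, and on the log2(FPKM + 1) scale such changes are understated.

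OAS1, a second oligoadenylate synthetase, was at 6.20 and 4.17 FPKM in R_DT, compared with 1.03 and 1.19 FPKM in R_DMSO (1.53 ± 0.34, adjusted p = 0.0474). TRIM22, a ubiquitin ligase with antiviral activity, was at 10.3 and 8.89 FPKM in R_DT, compared with 2.82 and 2.71 FPKM in R_DMSO (1.49 ± 0.20, adjusted p = 0.0108). IFI44 was at 10.9 and 10.5 FPKM in R_DT, compared with 3.32 and 2.23 FPKM in R_DMSO (1.65 ± 0.27, adjusted p = 0.0204). The R_DT libraries lay above both R_DMSO libraries for each. IFI6, whose promoter holds 3 ISRE cores, was at 69.5 and 79.0 FPKM in R_DT, compared with 24.0 and 24.4 FPKM in R_DMSO (1.57 ± 0.19, adjusted p = 0.00886). PSMB8 was at 64.7 and 80.8 FPKM in R_DT, compared with 39.5 and 34.5 FPKM in R_DMSO (0.95 ± 0.15, adjusted p = 0.0181), and PSMB9 was at 54.7 and 57.9 FPKM in R_DT, compared with 31.6 and 26.4 FPKM in R_DMSO (0.94 ± 0.19, adjusted p = 0.0401). Again no R_DT library fell within the R_DMSO range. IFI35 was at 17.5 and 15.4 FPKM in R_DT, compared with 8.90 and 8.42 FPKM in R_DMSO (0.85 ± 0.18, adjusted p = 0.0389), and PARP14 and DTX3L, an ADP-ribosyltransferase and a ubiquitin ligase, were called with log2 fold changes of 0.76 ± 0.15 and 0.69 ± 0.15.

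No regulator or sensor passed in R cells. STAT2 was at 9.92 and 8.06 FPKM in R_DT, compared with 12.8 and 9.52 FPKM in R_DMSO (-0.27 ± 0.18, adjusted p = 0.419), with overlapping groups, and IRF9 was at 4.73 and 5.87 FPKM in R_DT, compared with 6.53 and 6.72 FPKM in R_DMSO (-0.28 ± 0.16, adjusted p = 0.346), with both R_DT libraries lower. IRF1 was at 16.4 and 14.4 FPKM in R_DT, compared with 10.6 and 11.2 FPKM in R_DMSO (0.47 ± 0.31, adjusted p = 0.410) and IRF7 was at 4.95 and 4.38 FPKM in R_DT, compared with 3.28 and 3.42 FPKM in R_DMSO (0.38 ± 0.33, adjusted p = 0.537). Both factors were higher in both R_DT libraries without passing. IFIH1 was at 3.16 and 2.90 FPKM in R_DT, compared with 1.36 and 0.870 FPKM in R_DMSO (0.94 ± 0.23, adjusted p = 0.0592), and DDX58 was at 5.13 and 5.15 FPKM in R_DT, compared with 3.95 and 4.27 FPKM in R_DMSO (0.27 ± 0.22, adjusted p = 0.523). The R_DT libraries of both sensors lay above those of R_DMSO. PKR (EIF2AK2) was at 25.2 and 30.3 FPKM in R_DT, compared with 24.2 and 27.6 FPKM in R_DMSO (0.092 ± 0.19, adjusted p = 0.819) and ADAR was at 18.1 and 19.0 FPKM in R_DT, compared with 20.2 and 22.3 FPKM in R_DMSO (-0.19 ± 0.14, adjusted p = 0.468). Leaving out a library took away most calls over all genes, of which 1114 were made with all libraries and 53 to 100 (0.314% to 0.591%) with one left out. Of the genes described here, 2 were called without R_DT replicate 1, R_DMSO replicate 1 or R_DMSO replicate 2, and 3 without R_DT replicate 2, which is 4.88% to 7.32% of the 41. Their median log2 fold change was 0.52 to 0.66 in these fits, against 0.61 with all libraries. BST2 and GBP2 were called in each of these fits, with adjusted p up to 0.0224 and 0.0375, and the other 10 lost the call in at least 1, with adjusted p up to 0.252. With every gene above 0 FPKM tested, 7 genes were called, with 2.63% of all genes, and with the replicate number as a block 7, with 3.64% of all genes. Scaling to TPM shifted the median of all genes to -0.14 and gave 456 genes higher and 590 lower, against 627 and 487 as deposited, with 9 of the 41 genes higher and none lower. The 6 fibroblast markers summed to 42.6 and 41.5 FPKM in R_DT, against 17.7 and 18.7 FPKM in R_DMSO, with COL1A1 called higher. The 8 melanocytic markers summed to 35.9 and 58.3 FPKM in R_DT, against 27.0 and 24.9 FPKM in R_DMSO, and the 9 leukocyte markers to 3.37 and 6.92 FPKM in R_DT, against 10.1 and 5.72 FPKM in R_DMSO, with none called. Their part in the result was not tested.

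In P cells 16 of 41 tested genes rose and 2 fell in P_DT relative to P_DMSO (43.9% called), and over all 17190 genes 22.5% were called, 12.8% higher and 9.67% lower. STAT2 and IRF9 rose, along with the sensor DDX58, the IFIT genes IFIT1, IFIT2 and IFIT3, IFITM1 and IFITM3, ISG15, OAS1, OAS3 and IFI6. The nuclease gene ISG20 and BST2 fell. The median log2 fold change was 0.66, against 0.11 over all genes.

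Among regulators, STAT2 was at 27.8 and 27.6 FPKM in P_DT, compared with 12.3 and 11.6 FPKM in P_DMSO (1.15 ± 0.18, adjusted p = 0.00714) and IRF9 was at 18.4 and 17.6 FPKM in P_DT, compared with 11.4 and 10.8 FPKM in P_DMSO (0.65 ± 0.16, adjusted p = 0.0307). Both P_DT libraries exceeded both P_DMSO libraries in each gene. IRF7 was at 6.02 and 6.80 FPKM in P_DT, compared with 1.57 and 4.28 FPKM in P_DMSO and did not pass (1.01 ± 0.33, adjusted p = 0.0724), and IRF1 was at 6.43 and 11.2 FPKM in P_DT, compared with 8.79 and 14.8 FPKM in P_DMSO, with overlapping groups (-0.39 ± 0.31, adjusted p = 0.407). Of the sensors, DDX58 was at 3.18 and 4.39 FPKM in P_DT, compared with 2.08 and 1.36 FPKM in P_DMSO (0.82 ± 0.22, adjusted p = 0.0425), and IFIH1 was at 3.66 and 3.27 FPKM in P_DT, compared with 6.33 and 4.61 FPKM in P_DMSO, lower in both P_DT libraries without passing (-0.52 ± 0.23, adjusted p = 0.143). PKR (EIF2AK2) was at 22.2 and 16.5 FPKM in P_DT, compared with 20.5 and 17.5 FPKM in P_DMSO (0.013 ± 0.19, adjusted p = 0.980) and ADAR was at 75.4 and 67.6 FPKM in P_DT, compared with 53.2 and 61.1 FPKM in P_DMSO (0.32 ± 0.14, adjusted p = 0.141). PKR overlapped between the groups and ADAR did not.

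Of the genes that rose, IFI6 had the largest change on the log2(FPKM + 1) scale, at 47.8 and 53.7 FPKM in P_DT, compared with 8.31 and 12.2 FPKM in P_DMSO (2.22 ± 0.19, adjusted p = 0.000770). With a pseudocount of 0.1 IFIT1 had the larger one, at 2.75, against 2.32 for IFI6. IFIT1, which binds viral RNA that lacks a host-type cap, was at 2.34 and 2.497 FPKM in P_DT, compared with 0.282 and 0.266 FPKM in P_DMSO (1.42 ± 0.20, adjusted p = 0.00413). IFIT2 and IFIT3, its partners, behaved alike in direction: IFIT2 was at 5.36 and 5.83 FPKM in P_DT, compared with 1.01 and 1.87 FPKM in P_DMSO (1.46 ± 0.23, adjusted p = 0.00682), and IFIT3 passed at 1.07 ± 0.18, adjusted p = 0.00742. In all of these the P_DT libraries lay close together and above both P_DMSO libraries. IFITM3 was at 638 and 808 FPKM in P_DT, compared with 131 and 277 FPKM in P_DMSO (1.91 ± 0.33, adjusted p = 0.00894). IFITM1, its relative at the cell surface, was at 26.9 and 39.4 FPKM in P_DT, compared with 5.10 and 10.9 FPKM in P_DMSO (1.98 ± 0.36, adjusted p = 0.0112). For both, P_DMSO replicate 2 was the higher of the vehicle libraries and still lay below both P_DT libraries. IFITM1 and IFITM2 share 351 exonic bases on the same strand, so the authors' estimates could split reads between them. IRF9 shares 1838 of its 3794 exonic bases, and GBP2 621 of 6276, with another protein-coding gene on the same strand, and their values carry the same limit.

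GBP2 was at 8.59 and 8.36 FPKM in P_DT, compared with 2.03 and 1.79 FPKM in P_DMSO (1.70 ± 0.19, adjusted p = 0.00190). ISG15 was at 33.9 and 36.2 FPKM in P_DT, compared with 7.69 and 16.2 FPKM in P_DMSO (1.56 ± 0.36, adjusted p = 0.0247). PARP9, the partner of DTX3L, was at 11.9 and 14.0 FPKM in P_DT, compared with 3.93 and 4.62 FPKM in P_DMSO (1.404 ± 0.19, adjusted p = 0.00347). All 3 were higher in both P_DT libraries than in either P_DMSO library. ISG20, an exonuclease that degrades single-stranded RNA, went the other way, at 12.7 and 17.9 FPKM in P_DT, compared with 51.9 and 119 FPKM in P_DMSO (-2.31 ± 0.43, adjusted p = 0.0117). BST2 was at 2.54 and 2.53 FPKM in P_DT, compared with 5.42 and 4.45 FPKM in P_DMSO (-0.74 ± 0.20, adjusted p = 0.0380). Both P_DT libraries were thus below P_DMSO for these genes. OAS1 was at 5.40 and 8.10 FPKM in P_DT, compared with 1.19 and 2.85 FPKM in P_DMSO (1.39 ± 0.34, adjusted p = 0.0291), with both P_DT libraries higher. OAS3, SAMD9 and IFI35 were called higher with log2 fold changes of 0.69 to 0.93. With a library left out, the counts moved, and those over all genes moved too, not always in parallel. Without P_DMSO replicate 1, 15 genes were higher and 1 lower (21.4% of all genes called), and without P_DMSO replicate 2, 18 and 2 (35.9% of all genes). Without P_DT replicate 1, 7 were higher (7.25% of all genes called), and without P_DT replicate 2, 4 (7.08% of all genes), with none lower in either. IFI6, IFIT1, GBP2 and PARP9 were called in each of the 10 alternatives. The calls of BST2 and DDX58 held in only 3 of the 10, with adjusted p up to 0.154 and 0.215 where a library was left out, that of IFI35 in 4 and those of IRF9, ISG15, OAS1 and OAS3 in 5. In a fit of the 4 P libraries alone 7 were higher and 1 lower, with 9.29% of all genes called. Scaling to TPM moved the median of all genes to 0.22 and gave 3051 genes higher and 1234 lower, against 2199 and 1662 as deposited, with 18 of the 41 genes higher and 1 lower. Melanocytic and fibroblast markers moved with the drugs in P cells, summing to 430.4 and 452 FPKM and to 9.86 and 11.6 FPKM in P_DT, against 157 and 201 FPKM and 1.52 and 0.959 FPKM in P_DMSO. In P_DT the 9 leukocyte markers came to a sum of 1.34 and 1.29 FPKM, and in P_DMSO to 0.648 and 2.56 FPKM. Their part in the result was not tested.

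**Figure D4:**
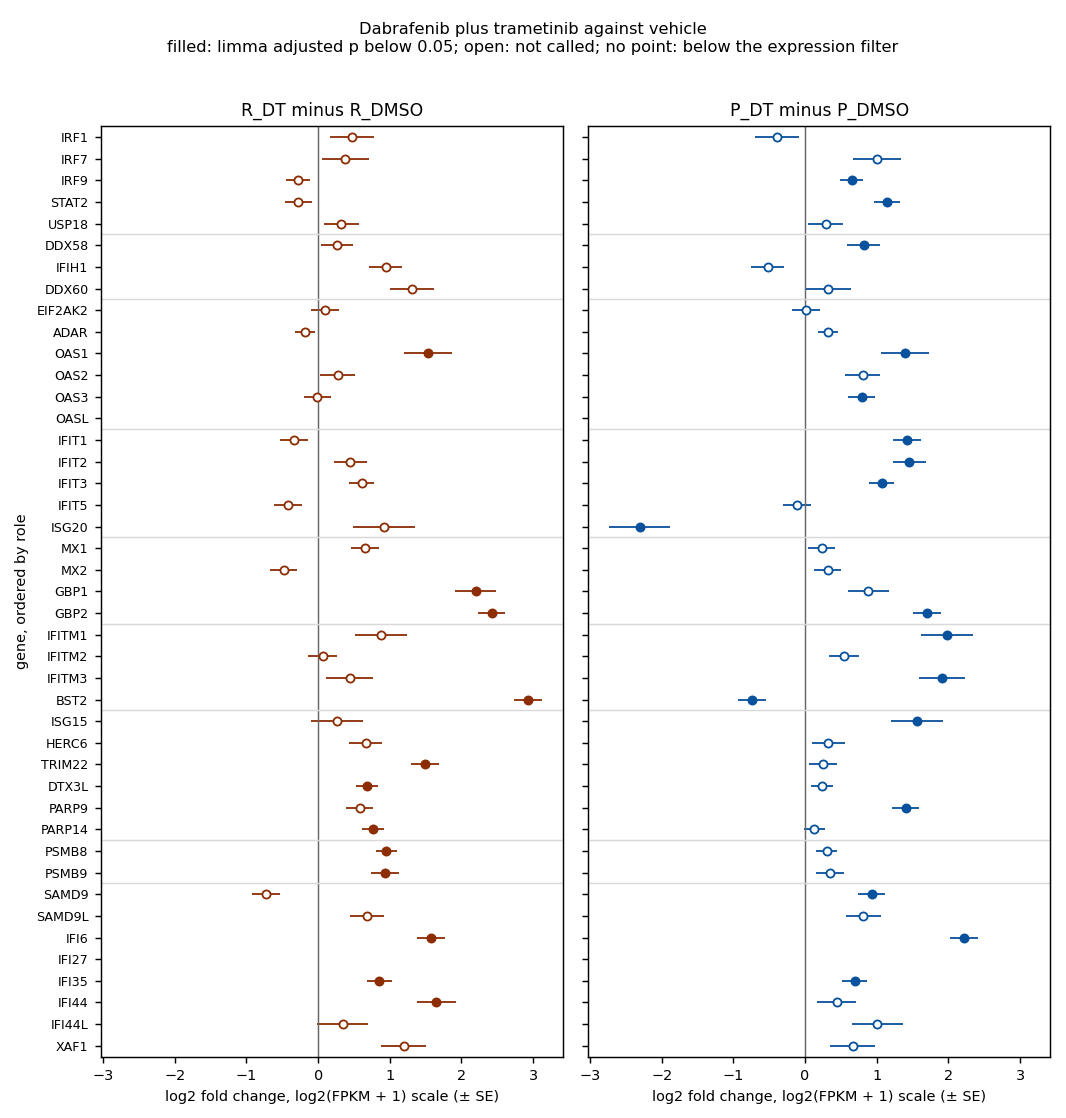
Log2 fold change on the log2(FPKM + 1) scale (x axis, ± SE) of each gene (y axis, ordered by role) for dabrafenib plus trametinib against vehicle in R cells (left) and P cells (right), from one fit of 8 libraries. Filled points passed limma at an adjusted p below 0.05. In R cells 12 points are filled, all to the right of 0, and in P cells 18 are filled, 16 to the right and 2 to the left (ISG20 and BST2).

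Whether the drug response differed between the lines was tested as an interaction in the same fit. Of the 41 genes, 8 differed (19.5%), 4 with a higher response in R cells and 4 with a lower one, while 13.9% of all genes differed, 6.64% higher and 7.24% lower. The 4 higher ones were BST2, ISG20, IFIH1 and TRIM22, and the 4 lower ones were IFIT1, SAMD9, STAT2 and IRF9. For the subunits of the ISRE-binding complex, the response of R cells minus that of P cells was -1.42 ± 0.26, adjusted p = 0.0179 for STAT2 and -0.93 ± 0.23, adjusted p = 0.0410 for IRF9 on the log2 scale. The call of STAT2 held in 8 of 13 alternatives. That of IRF9 held in 4 of 13: it was lost with quantiles matched, with every gene above 0 FPKM tested, with the replicate block and in 6 of the 8 fits with a library left out, with adjusted p up to 0.145 in the last. IFIT1 also had a lower response in R cells (-1.76 ± 0.28, adjusted p = 0.0112). It was at 1.68 and 1.77 FPKM in R_DT, 2.26 and 2.65 FPKM in R_DMSO, 2.34 and 2.497 FPKM in P_DT and 0.282 and 0.266 FPKM in P_DMSO. Of these the P_DMSO libraries alone were low. SAMD9, an antiviral translation inhibitor, was at 3.90 and 3.22 FPKM in R_DT, 5.95 and 7.13 FPKM in R_DMSO, 9.83 and 8.58 FPKM in P_DT and 4.66 and 4.06 FPKM in P_DMSO (-1.65 ± 0.27, adjusted p = 0.0124). It was thus lower with the drugs than with vehicle in R cells and higher in P cells.

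The difference had the opposite sign for BST2, whose 2 ISRE cores overlap. It was higher with the drugs in R cells and lower in P cells, and the difference of the responses was 3.67 ± 0.28, adjusted p = 0.00120. ISG20 was at 14.4 and 18.2 FPKM in R_DT, 10.8 and 6.03 FPKM in R_DMSO, 12.7 and 17.9 FPKM in P_DT and 51.9 and 119 FPKM in P_DMSO (3.23 ± 0.60, adjusted p = 0.0190). The P_DMSO libraries, which differ from each other, hold its high values. IFIH1, at the levels given above, had a difference of 1.46 ± 0.32, adjusted p = 0.0300. TRIM22 was at 10.3 and 8.89 FPKM in R_DT, 2.82 and 2.71 FPKM in R_DMSO, 1.19 and 1.56 FPKM in P_DT and 0.958 and 1.02 FPKM in P_DMSO (1.24 ± 0.28, adjusted p = 0.0316). Its R_DT libraries stood above all others. For the remaining regulators and sensors the difference was 0.85 ± 0.43, adjusted p = 0.234 for IRF1, -0.62 ± 0.47, adjusted p = 0.410 for IRF7, -0.55 ± 0.32, adjusted p = 0.288 for DDX58, 0.080 ± 0.27, adjusted p = 0.872 for EIF2AK2 and -0.51 ± 0.20, adjusted p = 0.132 for ADAR.

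BST2 was the only one of the 8 that passed whichever single library was left out, with adjusted p up to 0.0123. The call of TRIM22 held in 4 of the 13 alternatives, that of IFIH1 in 5, those of IFIT1 and ISG20 in 8 and that of SAMD9 in 9. BST2 was also the only gene called without P_DT replicate 1, P_DT replicate 2 or R_DT replicate 2. There was 1 gene higher and 1 lower without R_DT replicate 1, likewise without R_DMSO replicate 2, and 2 higher and 2 lower without R_DMSO replicate 1. In these 6 fits 646 to 801 of all genes were called (3.88% to 4.73%), against 2385 with all libraries. Without P_DMSO replicate 1 there were 5 higher and 5 lower, with 1580 of all genes higher and 1635 lower. Without P_DMSO replicate 2 there were 5 higher and 13 lower, with 1555 of all genes higher and 2966 lower. Scaling to TPM moved the median of all interaction terms to -0.39, against -0.16 as deposited, with 858 genes higher and 2252 lower, against 1141 and 1244, and then 2 of the 41 genes were higher (BST2 and ISG20) and 10 lower. Of the markers, 2 of 5 tested melanocytic and 1 of 2 tested fibroblast genes (LUM) had a lower response in R cells and neither of 2 leukocyte genes differed by the test, and their part in the result was not tested.

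**Figure D5:**
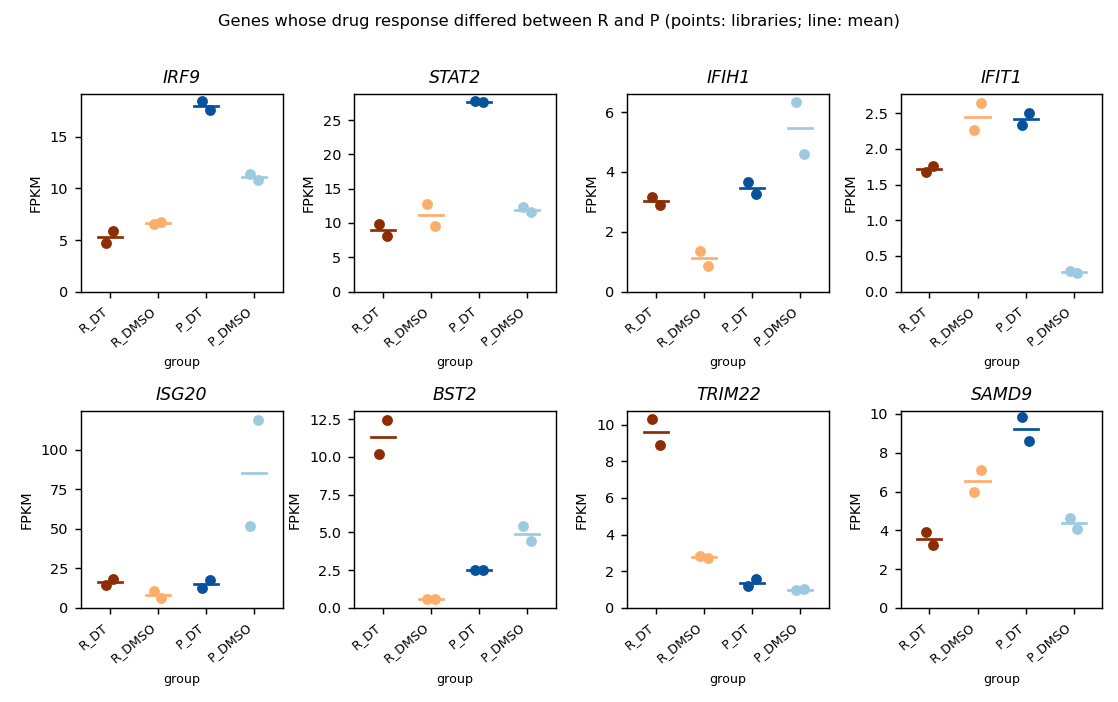
FPKM (y axis, linear from 0) in each library (points, with the mean of 2 as a line) of the 4 drug groups for the 8 genes whose response differed between R and P cells. BST2 reaches 10.2 and 12.5 FPKM in R_DT, while STAT2 stands at 27.8 and 27.6 FPKM in P_DT and at 8.06 to 12.8 FPKM elsewhere.

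Between the lines, 7 of the 41 genes were higher and 11 lower in R_DMSO than in P_DMSO (43.9% called), with 27.6% of all genes called, 16.2% higher and 11.5% lower. These comparisons use the same P_DMSO and R_DMSO libraries as those above and are not independent of them. ISG20 was at 10.8 and 6.03 FPKM in R_DMSO, compared with 51.9 and 119 FPKM in P_DMSO (-3.13 ± 0.43, adjusted p = 0.00289), and IFITM1 at 1.54 and 0.832 FPKM in R_DMSO, compared with 5.10 and 10.9 FPKM in P_DMSO (-1.98 ± 0.36, adjusted p = 0.00853). BST2 was at 0.590 and 0.622 FPKM in R_DMSO, compared with 5.42 and 4.45 FPKM in P_DMSO (-1.88 ± 0.20, adjusted p = 0.000991). The 3 genes were lower in both R_DMSO libraries than in either P_DMSO library. The sensors parted: IFIH1 was at 1.36 and 0.870 FPKM in R_DMSO, compared with 6.33 and 4.61 FPKM in P_DMSO (-1.61 ± 0.23, adjusted p = 0.00319), while DDX58 was at 3.95 and 4.27 FPKM in R_DMSO, compared with 2.08 and 1.36 FPKM in P_DMSO (0.92 ± 0.22, adjusted p = 0.0241). With vehicle, MDA5 transcripts were thus the lower and RIG-I transcripts the higher in R cells, but the call of DDX58 was lost in 5 of 11 alternatives, on the TPM scale, with these 4 libraries alone and without P_DMSO replicate 2 or either R_DMSO library (adjusted p up to 0.114). ADAR was at 20.2 and 22.3 FPKM in R_DMSO, compared with 53.2 and 61.1 FPKM in P_DMSO (-1.38 ± 0.14, adjusted p = 0.000827), and IFI44 was at 3.32 and 2.23 FPKM in R_DMSO, compared with 11.6 and 6.56 FPKM in P_DMSO (-1.38 ± 0.27, adjusted p = 0.0116). ISG15 was at 44.6 and 25.7 FPKM in R_DMSO, compared with 7.69 and 16.2 FPKM in P_DMSO (1.51 ± 0.36, adjusted p = 0.0225). ADAR and IFI44 were lower and ISG15 higher in both R_DMSO libraries. OAS3 was at 15.3 and 16.0 FPKM in R_DMSO, compared with 4.59 and 6.73 FPKM in P_DMSO (1.34 ± 0.19, adjusted p = 0.00344), and GBP1 was at 0.173 and 0.303 FPKM in R_DMSO, compared with 2.21 and 1.48 FPKM in P_DMSO (-1.19 ± 0.29, adjusted p = 0.0243). The first was higher and the other lower in both R_DMSO libraries. IFIT1 and IFI6 were also higher in R cells (1.44 ± 0.20 and 1.18 ± 0.19), as were TRIM22 and PSMB9, and GBP2, IFI35, IFITM2 and IRF9 were lower, with IRF9 at -0.67 ± 0.16, adjusted p = 0.0238. Of the 7 alternatives that left out no single library, the call of PSMB9 held in 2. A pseudocount of 0.1, no filter, quantile normalization, the replicate block and the fit of these 4 libraries alone each lost it. STAT2 (-0.11 ± 0.18, adjusted p = 0.705), IRF1 (-0.069 ± 0.31, adjusted p = 0.895), IRF7 (0.24 ± 0.33, adjusted p = 0.633) and EIF2AK2 (0.43 ± 0.19, adjusted p = 0.148) did not pass. Of the 18 calls, 9 held in every alternative, among them those of ADAR, BST2, IFIH1, IFIT1, ISG20 and OAS3. A fit of the R_DMSO and P_DMSO libraries alone gave 3 higher and 9 lower, with 16.5% of all genes called. The median log2 fold change of the genes was -0.23, and -0.34 to -0.12 with single libraries left out. The 8 melanocytic markers summed to 27.0 and 24.9 FPKM in R_DMSO, against 157 and 201 FPKM in P_DMSO. Of 5 melanocytic markers tested, 2 were called lower and 1 higher in R_DMSO. The 6 fibroblast markers summed to 17.7 and 18.7 FPKM in R_DMSO, against 1.52 and 0.959 FPKM in P_DMSO. The 9 leukocyte markers summed to 10.1 and 5.72 FPKM in R_DMSO, against 0.648 and 2.56 FPKM in P_DMSO, with 1 of 2 tested, CSF1R, called higher (2.61 ± 0.34). Their part in the differences between the lines was not tested.

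Under the drugs, 5 of the 41 genes were higher and 13 lower in R_DT than in P_DT (43.9% called), close to the 37.6% called over all genes, 18.6% higher and 19.0% lower. IFITM1 was at 3.01 and 2.89 FPKM in R_DT, compared with 26.9 and 39.4 FPKM in P_DT (-3.09 ± 0.36, adjusted p = 0.00106). ADAR was at 18.1 and 19.0 FPKM in R_DT, compared with 75.4 and 67.6 FPKM in P_DT (-1.89 ± 0.14, adjusted p = 0.000149), and IFITM3 was at 217 and 220.4 FPKM in R_DT, compared with 638 and 808 FPKM in P_DT (-1.71 ± 0.33, adjusted p = 0.00719). Each was lower in both R_DT libraries. STAT2 was at 9.92 and 8.06 FPKM in R_DT, compared with 27.8 and 27.6 FPKM in P_DT (-1.53 ± 0.18, adjusted p = 0.00118) and IRF9 was at 4.73 and 5.87 FPKM in R_DT, compared with 18.4 and 17.6 FPKM in P_DT (-1.60 ± 0.16, adjusted p = 0.000574), so that both subunits of the ISRE-binding complex were lower in R_DT. TRIM22 (2.16 ± 0.20, adjusted p = 0.000370) and BST2 (1.79 ± 0.20, adjusted p = 0.000794) were higher in R_DT, as were PSMB8 and MX1. PSMB9 was at 54.7 and 57.9 FPKM in R_DT, compared with 22.7 and 24.3 FPKM in P_DT (1.23 ± 0.19, adjusted p = 0.00355). IFITM2 was at 17.6 and 23.0 FPKM in R_DT, compared with 59.2 and 67.2 FPKM in P_DT (-1.60 ± 0.20, adjusted p = 0.00146), and IFI44L at 0.644 and 1.79 FPKM in R_DT, compared with 4.82 and 4.42 FPKM in P_DT (-1.39 ± 0.35, adjusted p = 0.0212). Both R_DT libraries were higher for PSMB9 and lower for IFITM2 and IFI44L, and IFIT2, IFI35, MX2, PARP9, SAMD9 and SAMD9L were lower too. Of the 6 alternatives that left out no single library, the call of SAMD9L held in 2 and that of MX1 in 5. SAMD9L lost it with a pseudocount of 0.1, no filter, quantile normalization and the replicate block, and MX1 on the TPM scale. DDX58 (0.37 ± 0.22, adjusted p = 0.237), IFIH1 (-0.15 ± 0.23, adjusted p = 0.649), IRF1 (0.78 ± 0.31, adjusted p = 0.0870), IRF7 (-0.39 ± 0.33, adjusted p = 0.397) and EIF2AK2 (0.51 ± 0.19, adjusted p = 0.0785) did not pass. Scaling to TPM moved the median of all genes to -0.39, against -0.049 as deposited, and gave 2005 genes higher and 5334 lower, against 3199 and 3263, with 3 of the 41 genes higher and 15 lower. Leaving out P_DT replicate 1 or R_DT replicate 2 left 3 genes higher, against 4 without P_DT replicate 2 or R_DT replicate 1, and 9 to 11 lower, when 21.3% to 21.7% of all genes were called. The 8 melanocytic markers summed to 35.9 and 58.3 FPKM in R_DT, against 430.4 and 452 FPKM in P_DT, with 3 of 5 tested lower. The 6 fibroblast markers summed to 42.6 and 41.5 FPKM in R_DT, against 9.86 and 11.6 FPKM in P_DT, with both tested higher. The 9 leukocyte markers summed to 3.37 and 6.92 FPKM in R_DT, against 1.34 and 1.29 FPKM in P_DT, with CSF1R higher (2.21 ± 0.34). Their part in the result was not tested.

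Other genes of the pathway were read from lists chosen for it. Of 14 interferon and receptor genes, IFNG, IFNL1, IFNL2 and IFNL3 were at 0 in all 18 libraries, and IFNB1 was above 0 in 1, at 0.426 FPKM in R_shFosL1 replicate 1. Levels of the interferon genes IFNA1, IFNE and IFNK are not given here. At least 1 of them passed the expression filter in the drug libraries and in the P hairpin libraries. The receptor subunits IFNAR1 and IFNAR2 were present in every library, at 9.02 to 24.6 FPKM and 1.49 to 9.85 FPKM. None of the 6 tested genes of this list was called in R_shLSD1, where 21.8% of all genes were. None of 7 was called in P_shLSD1, where 3.42% of all genes were. The median log2 fold change of these 7 was 0.65, against -0.040 over all genes. Under the drugs in P cells, where 22.5% of all genes were called, IFNGR2, a subunit of the type II receptor, was lower (-1.14 ± 0.13). IL10RB, a subunit shared with the lambda interferon receptor, was higher there (0.70 ± 0.20). None of the 7 was called in R cells, where 6.48% of all genes were. IFNGR1 was higher in R than in P cells with vehicle (1.32 ± 0.20) and with the drugs (1.43 ± 0.20). With vehicle it was the only 1 of the 7 called, where 16.2% of all genes were higher and 11.5% lower. With the drugs 3 of the 7 were higher and 1 lower in R cells, where 18.6% of all genes were higher and 19.0% lower.

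The shares of all genes called, given with each comparison above, are the background for the counts that follow. Of 10 genes that carry the signal to the nucleus, JAK1 (-1.05 ± 0.11, adjusted p = 0.00472) and IRF2 (-1.60 ± 0.31, adjusted p = 0.0234), a factor that binds the same element as IRF1, fell in R_shLSD1 among 9 tested. JAK1 and IRF2 rose in R_DT relative to R_DMSO (0.68 ± 0.13 and 0.63 ± 0.14), and TYK2 and STAT3 rose in P_DT relative to P_DMSO (1.002 ± 0.28 and 0.91 ± 0.16). The drug response of JAK1 was higher in R than in P cells (0.92 ± 0.18, adjusted p = 0.0219). No gene of the 10 was called in P_shLSD1.

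Of 19 further genes of nucleic acid sensing, 15 were tested in R_shLSD1. The deaminase gene APOBEC3G (-1.25 ± 0.21), the transcription factor IRF3, which switches on interferon beta (-0.67 ± 0.097), and its kinase IKBKE (-0.70 ± 0.14) fell there, and SAMHD1, which depletes nucleotides, rose (0.78 ± 0.20). In P_shLSD1, 1 of 17 was called, the DNA sensor AIM2, which rose (1.97 ± 0.27, adjusted p = 0.0340). In P_DT relative to P_DMSO 4 of 17 rose and 4 fell, against 12.8% and 9.67% over all genes, with TLR3, a sensor of double-stranded RNA in endosomes, at 1.14 ± 0.25 and TRIM25, a ligase that activates RIG-I, at -1.22 ± 0.20. In R_DT relative to R_DMSO 1 of 17 rose and 1 fell by limma, against 3.65% and 2.83% over all genes. The gene that fell there was TMEM173 (STING), the adaptor for cytosolic DNA (-1.19 ± 0.17, adjusted p = 0.0147). It was also lower in R_DT than in P_DT (-2.10 ± 0.17, adjusted p = 0.000259).

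None of 10 genes of small RNA machinery and RISC was called in either LSD1 hairpin comparison by limma. Of 12 annotated endogenous retrovirus genes found in the tables, 5 were tested in R_shLSD1 and 4 in P_shLSD1, and none was called; repeat elements outside annotated genes were not analysed here. Of 19 genes that silence repeats, 1 rose and 3 fell in R_shLSD1, where 9.42% of all genes rose and 12.4% fell: the DNA methyltransferase gene DNMT3B rose (1.03 ± 0.22), and FAM208A, a subunit of the silencing complex HUSH (-0.70 ± 0.11), SUV39H2, a histone H3K9 methyltransferase (-0.66 ± 0.16), and the maintenance methyltransferase DNMT1 (-0.32 ± 0.069) fell. None of the 19 was called in P_shLSD1. In R_DT relative to R_DMSO 4 of the 19 fell, against 2.83% of all genes, with TRIM28, a corepressor of retroviral elements, at -0.95 ± 0.15, and none rose. Between the lines with vehicle, where 16.2% of all genes were higher and 11.5% lower, 3 of 17 sensing genes were higher and 5 lower in R_DMSO, as were 6 and 2 of the 19 silencing genes and 2 and 1 of 5 retrovirus genes. With the drugs, where 18.6% of all genes were higher and 19.0% lower, 2 of 17 sensing genes were higher and 5 lower in R_DT than in P_DT, as were 1 and 3 of the silencing genes and 2 and 2 of the retrovirus genes.

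Calls fell on genes with and without an ISRE core in their window. In R_DT relative to R_DMSO 7 of 22 tested genes with a core and 3 of 11 without one rose, and in P_DT relative to P_DMSO 9 of 22 with a core and 5 of 11 without one rose. In R_shLSD1 3 of 17 genes with a core fell (PSMB8, IFITM3 and OAS3, whose promoters are shown above), as did 2 of 8 without one (PSMB9 and STAT2), and ADAR, which rose, had none. These counts are descriptions, and 9 of the 43 genes had no promoter window.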

How the data were processed

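The deposited tables give FPKM per gene and library. Per the submitters' processing notes, CASAVA 1.4, HISAT2 2.1.0 and Cufflinks 2.2.1 were used with build hg38; which step each tool served and the strand setting of the counting are not given in the sources used here. FPKM were compared on the log2(FPKM + 1) scale, which understates changes of low genes, with limma 3.58.1 (trend and robust options) in R 4.3.3. A gene was tested if 2 libraries of its table or more held 1 FPKM of it, with Benjamini-Hochberg adjusted p below 0.05 over all of them as the threshold. The 8 drug libraries were fitted together, and each LSD1 hairpin table on its own, since the tables may have been normalized separately. The exact permutation test of 2 against 2 libraries cannot go below p = 0.33, so single genes rest on the limma fit. The members, lists and named genes were chosen with earlier results of these data known; the text names every called member, fixed regulators and sensors, and exceptions stated where they occur. Cufflinks values carry no counts, so no counting interval is given. From the table with the R hairpin libraries, 4940 blank rows were dropped, and 36 columns of confidence bounds were not used. Alternatives were a pseudocount of 0.1, no filter, TPM scaling, quantile normalization, a replicate block, the 2 groups alone and leaving out each library. Some genes of the lists are not reported here.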

Additional observations from a re-analysis of the deposited data

Results flagged for a closer look

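The drug response, R cells minus P cells on the log2 scale, differed between the lines by limma's interaction test for 8 genes. It was 3.67 ± 0.28 for BST2, 3.23 ± 0.60 for ISG20, 1.46 ± 0.32 for IFIH1 and 1.24 ± 0.28 for TRIM22. It was -1.76 ± 0.28 for IFIT1, -1.65 ± 0.27 for SAMD9, -1.42 ± 0.26 for STAT2 and -0.93 ± 0.23 for IRF9. These 8 are 19.5% of the 41 genes tested, and 13.9% of all genes differed. Only the call of BST2 held in every alternative, and the others were each lost in at least 1.

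The LSD1 hairpin groups did not overlap and lay in opposite directions in the 2 lines for 6 genes. Of the genes with a test in both lines, 5 of 29 met this condition (17.2%), as did 1071 of all 13250 (8.08%). All 5 were lower with the LSD1 hairpin in R cells and higher in P cells, as were 540 of all 13250 (4.08%). Whether these shares differ was not tested, and the difference between lines was not tested because the tables may have been normalized separately. The log2 change was -0.42 ± 0.15 in R cells and 0.23 ± 0.19 in P cells for IRF1, and -0.77 ± 0.31 in R cells and 0.79 ± 0.20 in P cells for IRF9. For DDX58, which passed the filter of the P table only through P_shLSD1, the group where it is high, it was -0.66 ± 0.25 in R cells and 0.36 ± 0.26 in P cells. For IFIT3 it was -0.11 ± 0.18 in R cells and 0.12 ± 0.21 in P cells, and for SAMD9 -0.32 ± 0.16 in R cells and 0.88 ± 0.25 in P cells. None of these 10 changes passed the threshold on its own. The sixth gene, TRIM22, was not tested in the P table. It was at 1.11 and 0.680 FPKM in R_shLSD1, compared with 1.76 and 2.99 FPKM in R_shCtrl, and at 0.977 and 1.03 FPKM in P_shLSD1, compared with 0.309 and 0.474 FPKM in P_shCtrl.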

How the results depend on the processing

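Of the 82 gene results that were called, 0 reversed under any alternative run. Of 39 results for regulators and sensors that were not called, 8 changed sign in at least 1 alternative, all with a log2 difference of at most 0.24 in size. Counts of the genes called moved by more than 1.5 times as follows, and the cause was not tested beyond the loss of libraries or the larger number of genes tested. With every gene above 0 FPKM tested, R_shLSD1 had 0 higher and 4 lower, R_DT against R_DMSO 7 higher and P_DT against P_DMSO 1 lower. Of all genes, 6.67%, 2.63% and 10.6% were called in these fits. Genome-wide, P_shLSD1 then had 0 calls, with 3969 genes at an unadjusted p below 0.05. On the TPM scale P_DT had 1 lower, R_DT against P_DT 3 higher, the difference of drug responses 2 higher and 10 lower, and P_shLSD1 1 lower. Of all genes, 24.9%, 42.7%, 18.1% and 4.29% were called in these fits. Under quantile normalization P_shLSD1 also had 1 lower, with 5.97% of all genes called. With quantiles matched, the median over all genes was -0.0024 for P_DT, against 0.11 as deposited, and -0.025 for the difference of responses, against -0.16. In fits of the 2 groups alone P_DT had 7 higher and 1 lower, with 9.29% of all genes called. R_DMSO against P_DMSO then had 3 higher, with 16.5% of all genes called.

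Leaving out single libraries gave, for P_DT, 4 to 18 higher and 0 to 2 lower, and for R_DT against R_DMSO 2 to 3 higher and 0 lower. It gave 3 to 8 higher and 7 to 12 lower for R_DMSO against P_DMSO, 3 to 4 higher and 9 to 11 lower for R_DT against P_DT, and 1 to 5 higher and 0 to 13 lower for the difference of responses. For R_shLSD1 the median was -0.55 to -0.40, against -0.49 with all libraries, and for P_shLSD1 -0.20 to -0.039, against -0.13. A group reduced to 1 library is assumed to vary like the others.

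With the replicate number as a block, P_DT had 12 higher and 1 lower, R_DT against R_DMSO 7 higher and the difference of responses 3 higher and 3 lower. Of all genes, 18.2%, 3.64% and 9.33% were called in these fits. Same-numbered drug libraries share only a number, with correlations of their deviations of -0.161 to 0.069. Crossed numbers for P_DMSO and R_DMSO, at -0.161, were an alternative chosen after seeing the data. They gave 7 higher and 11 lower, with 28.0% of all genes called. No paired analysis was possible because the LSD1 and control hairpin libraries of a table share fewer than 2 replicate numbers in their titles; where a title gives none, the number used here follows the order of deposit and only names the library. The number of libraries, 2 a group, limits the precision of every value.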
